A study of Mus musculus with 3 samples.

Results

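The genes described here are 50 genes of endocytosis and macropinocytosis, chosen by name from the machinery that coats, bends, cuts and sorts membrane during uptake. All 50 were found among the 22976 genes of the count table. Messenger RNA was sequenced from NSC-34, a mouse hybrid line made by fusing embryonic spinal cord cells enriched in motor neurons with neuroblastoma cells. There were 2 libraries of clones, clone 1 and clone 2, which the labels describe as wild type and spontaneously resistant to PR20 after 3 weeks with 10 µM of this peptide. They were set against 1 library of wild-type NSC-34 cells without treatment, the control. PR20 is a synthetic peptide that repeats proline and arginine, a dipeptide that cells also make from C9ORF72 genes carrying the expansion found in amyotrophic lateral sclerosis. The labels do not say how the clones were isolated, whether they came from separate cultures or whether peptide was present at harvest, so the spread behind each p-value is that of these libraries alone and may be technical.

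In clathrin-mediated endocytosis the AP2 complex recruits clathrin to the plasma membrane, adaptors gather cargo, BAR domain proteins bend the membrane and dynamin cuts the neck of the vesicle. Neurons use brain-enriched forms of several of these proteins to recycle synaptic vesicles. Macropinocytosis is a bulk form of uptake in which actin-driven ruffles under the control of small GTPases fold back on the cell. The vesicles of both routes reach endosomes marked by RAB5, from which receptors recycle or pass to lysosomes. Cell-penetrating peptides rich in arginine are known to enter cells partly by these routes, and the comparison asks which uptake transcripts differed between resistant and untreated cells.

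Levels are given as CPM, the read count scaled to the size of its library by TMM factors, and a log2 fold change is that of the clones over the control, with its approximate standard error (SE). The libraries held 11389663 and 11307034 gene counts in clones 1 and 2 and 11700755 in the control. A single read was worth 0.0890 CPM in clone 1, 0.0898 CPM in clone 2 and 0.0831 CPM in the control. Of 13705 genes tested, 3334 were higher and 3534 lower in the clones (edgeR adjusted p under 0.05). Of 11 pan-neuronal markers, 9 were tested and all 9 were lower in the clones. Among these 9, Syp, Nefl and Nefm had at most 5 reads in a clone and passed the filter on low counts only through the control. Summed levels of the markers were 382 CPM in clone 1, 361 CPM in clone 2 and 1599.5 CPM in the control. Stmn2 had no read in either clone and 2 in the control. Motor neuron and cholinergic markers summed to 23.3 CPM in clone 1, 20.7 CPM in clone 2 and 63.8 CPM in the control. The 4 of them that were tested, Slc18a3, Ache, Isl1 and Lhx4, were all lower in the clones. Of these, Slc18a3 and Lhx4 passed the filter on low counts only through the control, so they could hardly be called higher. Lhx4 had 4 and 1 reads in the clones and 20 in the control. Mnx1, which was not tested, had 1 and 3 reads in the clones and 1 in the control. Slc18a3 had 3 and 1 reads in the clones and 113 in the control, and Ache 231 and 209 against 554. Chat, a defining marker of motor neurons, was near absent and not tested, with no read in either clone and 7 in the control. Markers of sympathetic neuroblasts summed to 1629.6 CPM in clone 1, 1422.5 CPM in clone 2 and 1958.9 CPM in the control. All 7 of these were tested and 6 were lower in the clones, among them Dbh, which passed the filter only through the control. Ret was not called (log2 fold change 0.03, edgeR adjusted p = 0.682). Markers of microglia summed to between 0.890 and 1.26 CPM in the clones and 0.997 CPM in the control.

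The machinery as a whole was split between the directions. Of the 50 genes, 48 passed the filter on low counts, and 14 were higher and 14 lower in the clones, where 24.3% of all tested genes were higher and 25.8% lower. The 28 genes called make 58.3% of the 48, against 50.1% of all genes tested. DESeq2 called 4 of the higher genes (10.3% of all genes it tested) and 9 of the lower ones (10.1%), namely Ap2a1, Itsn1, Rab34 and Ehd2 as higher and Cltb, Snap91, Dnm1, Dnm3, Cavin2, Cdc42, Rab5a, Rab11a and Tfrc as lower. Without a filter on low counts edgeR called 0 of the 50 genes, while 26 had an unadjusted p under 0.05. Most of the 28 changes were small. A call together with a change of at least 0.5 on the log2 scale was made for 3 higher genes (10.2% of all tested genes) and 5 lower genes (16.2%), and the other 20 calls were smaller. A fall of more than 1, called for 9.35% of all tested genes, was seen in Dnm3 and Snap91. The median absolute log2 fold change was 0.26 for the 48 genes and 0.33 for all tested genes, and the signed medians were -0.05 and 0.002. Added together, the 50 genes took 6501 CPM in clone 1, 6364 CPM in clone 2 and 6646 CPM in the control. Exons of other annotated genes overlap those of Ap2a1, Ap2a2, Ap2b1, Itsn2, Dnm2, Dnm3, Bin1, Sh3gl1, Arf6, Rac1, Snx5, Rab5a and Rab7 on the opposite strand and of Rab11a on the same strand, and without a stated strand setting their reads cannot be told apart.

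**Figure D1:**
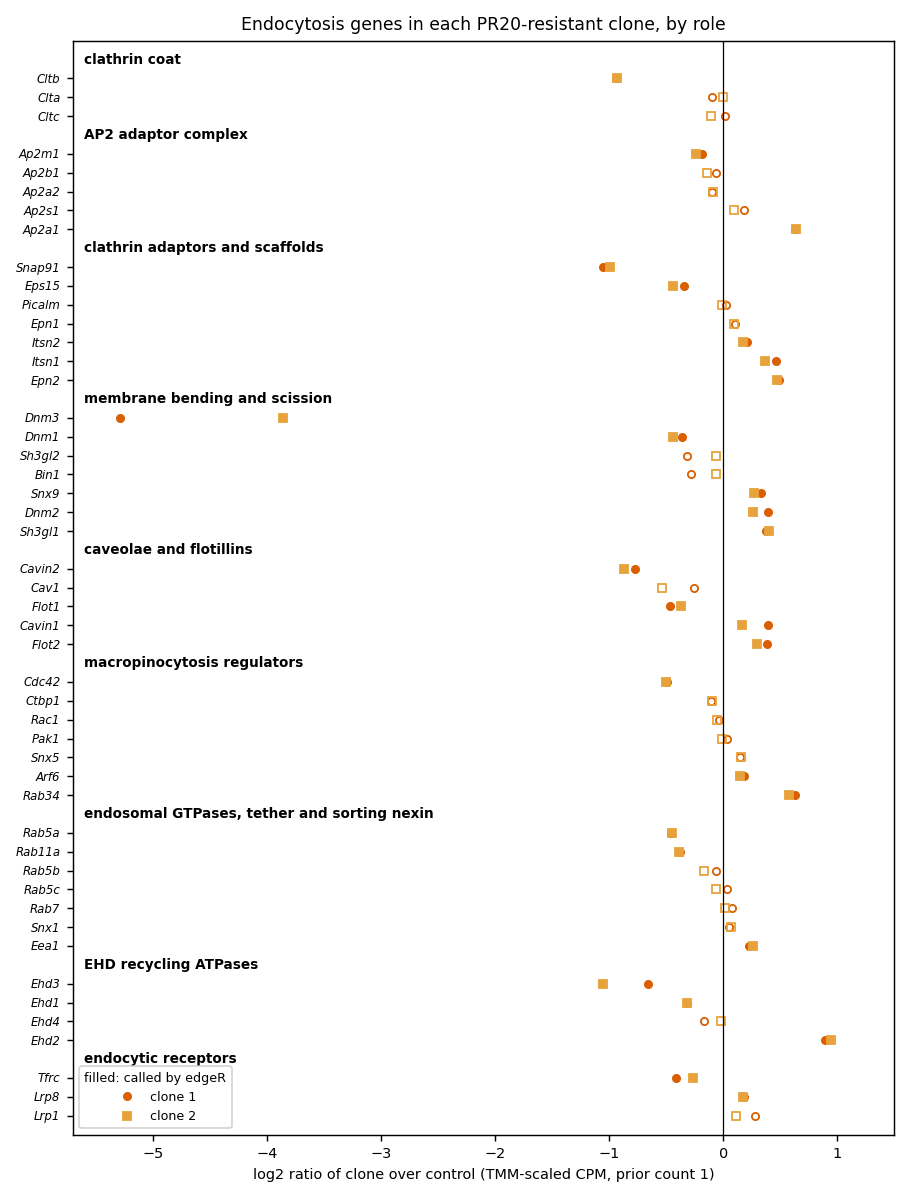
Log2 ratio of each clone over the control for the 48 tested genes, grouped by role, from TMM-scaled CPM with a prior count of 1; circles are clone 1, squares clone 2, and filled symbols mark genes with an edgeR adjusted p under 0.05. Dnm3 lies far to the left of all other genes, Ehd2 lies farthest to the right, and filled symbols fall on both sides of 0 in every role except the clathrin coat.

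The DNA before the start of 4 of these genes is shown because they moved furthest, Dnm3, Snap91 and Cltb down and Ehd2 up. Each line gives the 250 bases upstream of the RefSeq start on GRCm38.p6, 5′ to 3′ on the gene's strand, which is the minus strand for all 4. Capitals mark matches to the CCAAT box, spelled as its name, to the GC box with the letters GGGCGG, or to the cyclic AMP response element (TGACGTCA), each searched on both strands, with no overlap between the matches shown.
Dnm3 (chr1:162478035-162478284): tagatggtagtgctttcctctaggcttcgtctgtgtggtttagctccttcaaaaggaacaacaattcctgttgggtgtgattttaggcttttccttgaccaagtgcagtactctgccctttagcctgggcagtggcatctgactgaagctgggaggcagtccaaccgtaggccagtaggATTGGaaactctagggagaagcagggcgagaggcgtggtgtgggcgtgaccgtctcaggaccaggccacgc
Snap91 (chr9:86880709-86880958): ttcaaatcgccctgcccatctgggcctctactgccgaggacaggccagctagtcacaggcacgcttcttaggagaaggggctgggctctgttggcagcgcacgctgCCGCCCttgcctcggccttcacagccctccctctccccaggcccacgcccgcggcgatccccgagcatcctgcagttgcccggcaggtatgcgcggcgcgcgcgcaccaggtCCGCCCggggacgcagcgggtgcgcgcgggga
Cltb (chr13:54611374-54611623): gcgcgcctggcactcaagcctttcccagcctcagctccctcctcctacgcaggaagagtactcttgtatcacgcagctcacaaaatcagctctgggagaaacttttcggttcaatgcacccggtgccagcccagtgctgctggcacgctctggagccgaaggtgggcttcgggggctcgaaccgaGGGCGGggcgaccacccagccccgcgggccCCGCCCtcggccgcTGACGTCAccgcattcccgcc
Ehd2 (chr7:15967536-15967785): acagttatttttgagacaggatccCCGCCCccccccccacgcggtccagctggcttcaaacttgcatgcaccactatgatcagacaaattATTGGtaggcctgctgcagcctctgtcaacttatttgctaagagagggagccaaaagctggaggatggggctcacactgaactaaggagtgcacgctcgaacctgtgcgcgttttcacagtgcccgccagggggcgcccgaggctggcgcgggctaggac
These windows also hold no E box (CACGTG), no TATA box (TATAAA) and no TTCAGCACC, a stretch of the RE1 element. RefSeq windows were matched for 44 of the 50 genes, 55 windows in all. A GC box stood in 61.8% of these 55 windows and in 32.7% of all 32851 windows, and the median GC content was 60.8% and 52.4%. The cyclic AMP response element of Cltb was also in the windows of Ap2b1, Pak1, Rab5a and Sh3gl2, or 9.09% of the 55 windows against 1.55% of all windows. The E box was in windows of Ap2m1, Epn1, Pak1, Picalm, Rab5a and Snx5 (12.7% of windows, against 6.02%). The CCAAT box stood in 43.6% of the 55 windows and 33.9% of all windows, and the TATA box in 9.09% and 12.4%. The RE1 stretch was in 0 of the 55 windows and in 0.301% of all windows. A match is a run of letters, not a shown binding site.

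The clathrin coat changed in 1 of its 3 genes, the light chain Cltb, where 50.1% of all tested genes were called. Cltb stood at 38.6 CPM in clone 1, 38.8 CPM in clone 2 and 74.0 CPM in the control, and the log2 fold change was -0.93 (SE 0.08, edgeR adjusted p = 8.60e-08). Both clones were thus at nearly the same level, at 52.3% of the control. The other light chain gene, Clta, stood at 167 and 179 CPM in the clones and 179 CPM in the control, and the heavy chain gene Cltc at 528 and 486 CPM in the clones and 522 CPM in the control. Neither passed the test, with log2 fold changes of -0.05 and -0.04 (edgeR adjusted p = 0.520 and 0.541). Per kilobase of exon, Cltb supplied 7.89% of the light chain level in clone 1 and 7.43% in clone 2, against 13.3% in the control. The size of these shares depends on the annotated exons, 4868 bases for Cltb and 1800 for Clta. Light chains together stood at 101 and 107 CPM per kilobase in the clones and 114 in the control, and the heavy chain at 62.1 and 57.2 in the clones and 61.5 in the control.

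The AP2 complex, which links cargo and lipid to clathrin, changed in 2 of 5 subunits and in opposite directions. Over all tested genes 50.1% were called. Ap2a1 encodes a form of the large alpha subunit and rose. It had 181 and 182 CPM in the clones and 117 CPM in the control, and the log2 fold change was 0.63 (SE 0.06, edgeR adjusted p = 2.95e-07). The other alpha gene, Ap2a2, had 242 and 243 CPM in the clones and 259 CPM in the control (log2 fold change -0.10, edgeR adjusted p = 0.147). Ap2a1 made 49.6% and 49.7% of the alpha level per kilobase in the clones and 37.3% in the control. Ap2m1, the mu subunit that reads tyrosine-based sorting signals, fell slightly to 309 and 298 CPM in the clones, against 351 CPM in the control (log2 fold change -0.21, edgeR adjusted p = 0.00336). The beta gene Ap2b1 and the sigma gene Ap2s1 had log2 fold changes of -0.10 and 0.14 and did not pass (edgeR adjusted p = 0.150 and 0.0843). Ap2a1, Ap2a2 and Ap2s1 lie on chromosome 7, where the median log2 fold change of 1069 tested genes was 0.26 and 42.7% of genes were called higher, and the part of the chromosome in the Ap2a1 result was not tested beyond this. Relative to that median, Ap2a1 remained 0.37 higher on the log2 scale (edgeR adjusted p = 8.12e-05) and Ap2a2 was 0.36 lower (edgeR adjusted p = 4.05e-05).

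Among clathrin adaptors and scaffolds 3 of 7 genes rose and 2 fell, where 24.3% of all tested genes rose and 25.8% fell. Snap91 encodes AP180, the neuronal relative of CALM that sets vesicle size at synapses. It stood at 75.6 CPM in clone 1, 78.9 CPM in clone 2 and 157 CPM in the control, and the log2 fold change was -1.03 (SE 0.06, edgeR adjusted p = 1.94e-09). Picalm, which encodes the widely expressed CALM, had 373 and 364 CPM in the clones and 366 CPM in the control (log2 fold change 0.01, edgeR adjusted p = 0.906). The clones lay on either side of the control for Picalm and far below it for Snap91. Picalm lies on chromosome 7, and relative to the median of that chromosome its log2 fold change was -0.25 (edgeR adjusted p = 0.000694). Relative to the median of chromosome 9, that of Snap91 was -1.02. On a per-kilobase scale AP180 made 25.9% and 27.2% of the pair in the clones, against 42.5% in the control. The size of these shares depends on the annotated exons, 9126 bases for Snap91 and 15732 for Picalm.

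Eps15, a scaffold of the early coat, fell to 65.1 and 60.7 CPM in the clones, against 82.6 CPM in the control (log2 fold change -0.39, edgeR adjusted p = 0.000361). The intersectin scaffold gene Itsn1 rose to 108 and 101 CPM, against 78.0 CPM in the control (log2 fold change 0.42, edgeR adjusted p = 0.000128), and its relative Itsn2 to a clone mean of 96.1 CPM, against 84.3 CPM (log2 fold change 0.19, edgeR adjusted p = 0.0280). Of the epsins, which bind ubiquitinated cargo, Epn2 rose to 47.7 and 47.1 CPM in the clones, against 33.9 CPM in the control (log2 fold change 0.48, edgeR adjusted p = 0.000341). Epn1, on chromosome 7, did not pass (log2 fold change 0.10, edgeR adjusted p = 0.216).

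Membrane bending and scission showed the largest change of all 48 genes, that of Dnm3. The dynamins are GTPases that pinch vesicles off, with Dnm1 enriched in neurons, Dnm2 made in most cells and Dnm3 found mainly in brain and testis. For Dnm3 there were 2 reads in clone 1, 7 in clone 2 and 124 in the control, or 0.178, 0.628 and 10.3 CPM. Its log2 fold change was -4.64 (SE 0.36, edgeR adjusted p = 3.75e-08), and the pooled ratio of the clones to the control was 0.0390 with an exact 95% counting interval of 0.0174 to 0.0765. It passed the count filter only through the control, and the log2 fold change was -4.01 without clone 1 and -5.77 without clone 2.

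Dnm1 fell to 82.7 and 78.4 CPM in the clones, against 106 CPM in the control (log2 fold change -0.40, edgeR adjusted p = 0.000138). Dnm2 moved the other way, with 165 and 151 CPM in the clones and 126 CPM in the control (log2 fold change 0.33, edgeR adjusted p = 0.000661). The dynamin total per kilobase was 46.8 and 43.3 CPM in the clones and 44.3 CPM in the control, so that its make-up moved more than its size. Dnm2 supplied 66.3% and 65.4% of it in the clones and 53.4% in the control, and Dnm1 supplied 33.7% and 34.5% in the clones and 45.6% in the control. The log2 ratio of Dnm1 to Dnm2 was -0.998 in clone 1, -0.945 in clone 2 and -0.248 in the control.

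Endophilins curve the neck of the bud and recruit dynamin. Sh3gl1, the widely expressed endophilin A2 gene, rose to 86.6 and 88.0 CPM in the clones, against 66.7 CPM in the control (log2 fold change 0.39, edgeR adjusted p = 0.000263). The brain form Sh3gl2 was low in all libraries, with 26 and 31 reads in the clones and 35 in the control, and did not pass (edgeR adjusted p = 0.663). Amph, the amphiphysin gene of nerve terminals, had 1 and 0 reads in the clones and 1 in the control and was not tested. Its widely expressed relative Bin1 had 41.0 and 47.6 CPM in the clones and 49.8 CPM in the control (log2 fold change -0.17, edgeR adjusted p = 0.157). Bin1 lies on chromosome 18, where the median log2 fold change was 0.41. Set against that median it was 0.58 lower (edgeR adjusted p = 0.000107). Snx9, a BAR domain sorting nexin that binds dynamin and actin regulators, rose to 107 and 102 CPM in the clones, against 85.0 CPM in the control (log2 fold change 0.30, edgeR adjusted p = 0.00148). Relative to the median of chromosome 17, on which it lies, its log2 fold change was 0.18.

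The brain-enriched and the widely expressed form of a family can be set against each other within a library, which gives a description without a test. Only dynamins, endophilins and the pair of AP180 and CALM were compared in this way, so other families are not covered. As a mean over both clones minus the control, the log2 ratio of Dnm1 to Dnm2 differed by -0.72, that of Dnm3 to Dnm2 by -4.90 and that of Snap91 to Picalm by -1.03. These ratios were not set against chromosome medians, and Picalm lies on chromosome 7, where the median log2 fold change was 0.26. With 2 and 7 reads of Dnm3 in the clones and 124 in the control, its difference was -4.12 without clone 1, -5.68 without clone 2 and -4.06 with a prior count of 5 in place of 1. For Sh3gl2 over Sh3gl1 the difference was -0.58, on 57 reads of Sh3gl2 in the clones and 35 in the control. Pan-neuronal markers fell in the same libraries, as given above, and their part in these differences was not tested. In a bulk library fewer cells of a kind and less RNA per cell cannot be told apart.

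**Figure D2:**
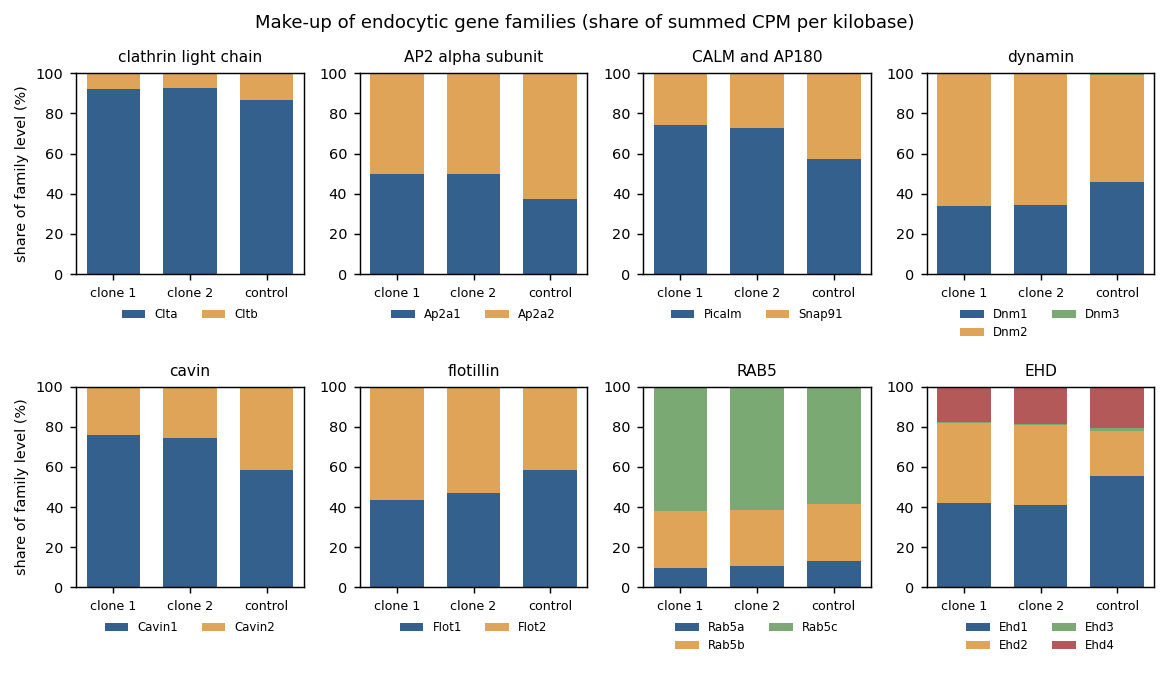
Share of each gene in the summed CPM per kilobase of its family, in percent, for clone 1, clone 2 and the control, in 8 families. The bars of both clones are alike in every panel, and the control holds more Cltb, Ap2a2, Snap91, Dnm1, Cavin2, Flot1, Rab5a and Ehd1 than either clone.

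The caveolar genes held few reads of the caveolins themselves. Cav1, the main coat protein of caveolae, had 10 and 8 reads in the clones and 13 in the control (0.890, 0.718 and 1.08 CPM) and did not pass (edgeR adjusted p = 0.532). Cav2 had 4 and 3 reads in the clones and 3 in the control and was not tested. The cavins, which shape caveolae together with caveolins, were well expressed and moved apart. Cavin2 fell to 18.4 and 17.1 CPM in the clones, against 31.5 CPM in the control (log2 fold change -0.82, SE 0.12, edgeR adjusted p = 2.43e-05). Cavin1 had 67.8 and 58.1 CPM in the clones and 51.7 CPM in the control (log2 fold change 0.28, edgeR adjusted p = 0.0180). That call was not made by limma-voom (adjusted p = 0.0559) or by DESeq2 (adjusted p = 0.359). The log2 fold change of Cavin1 was 0.17 without clone 1 and 0.39 without clone 2. Cavin1 thus made 75.8% and 74.3% of the pair per kilobase in the clones and 58.3% in the control.

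The flotillins, scaffolds of membrane domains outside caveolae, also moved apart. Flot1 fell to 40.9 and 43.7 CPM in the clones, against 56.5 CPM in the control (log2 fold change -0.42, edgeR adjusted p = 0.000688), and Flot2 rose to 49.8 and 47.0 CPM, against 38.2 CPM in the control (log2 fold change 0.34, edgeR adjusted p = 0.00478). Their sum per kilobase was 32.3 CPM in both clones and 33.5 CPM in the control. Markers of fibroblasts and mesenchyme, which cells rich in caveolae carry, summed to 97.7 and 128 CPM in the clones and 102 CPM in the control. Of the 7 of them tested, 2 were higher and 2 lower, where 24.3% of all tested genes were higher and 25.8% lower. The 5 markers of endothelium, also rich in caveolae, summed to 15.7 and 17.6 CPM in the clones and 31.9 CPM in the control. Both that were tested, Kdr and Pecam1, were lower, with log2 fold changes of -1.06 and -0.70 (edgeR adjusted p = 1.88e-05 and 0.0133). Cldn5 had 1 and 0 reads in the clones and 0 in the control, and Cdh5 had 4 and 2 reads in the clones and 10 in the control. Tek was not lower by its few reads, with 3 and 6 in the clones and 3 in the control. The part of either marker list in the caveolar values was not tested.

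Of the 7 macropinocytosis regulators, 2 rose and 1 fell, where 24.3% of all tested genes rose and 25.8% fell. Cdc42, a GTPase that directs actin at the cell surface, was the most abundant of these per kilobase in the control and fell. It stood at 349 CPM in clone 1, 347 CPM in clone 2 and 491 CPM in the control, and the log2 fold change was -0.50 (SE 0.05, edgeR adjusted p = 5.31e-07). Rac1, the GTPase that drives ruffling, had 554 and 545 CPM in the clones and 568 CPM in the control and did not pass (log2 fold change -0.05, edgeR adjusted p = 0.449). Its effector kinase gene Pak1, on chromosome 7, had 57.2 and 55.5 CPM in the clones and 55.9 CPM in the control (log2 fold change 0.01, edgeR adjusted p = 0.925). Rab34, a GTPase tied to the formation of macropinosomes, rose to 76.1 and 73.2 CPM in the clones, against 49.1 CPM in the control (log2 fold change 0.60, SE 0.08, edgeR adjusted p = 8.75e-06).

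Arf6, which controls recycling of membrane to ruffles, rose slightly to 218 and 212 CPM in the clones, against 192 CPM in the control (log2 fold change 0.16, edgeR adjusted p = 0.0240). Ctbp1, whose short form BARS closes macropinosomes, and Snx5, a sorting nexin found on them, had log2 fold changes of -0.10 and 0.15 and did not pass (edgeR adjusted p = 0.110 and 0.0521). The 3 GTPases Arf6, Rac1 and Cdc42 were the 3 most abundant of the 50 genes per kilobase in every library. Their order was Arf6, Rac1, Cdc42 in both clones and Cdc42, Rac1, Arf6 in the control.

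**Figure D3:**
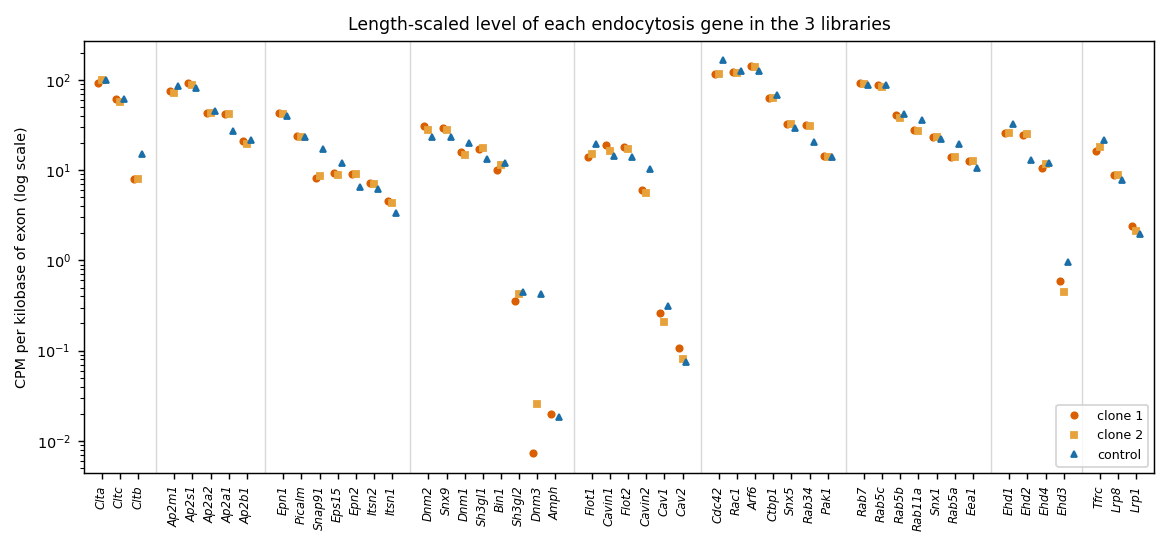
Level of each of the 50 genes in CPM per kilobase of exon, on a log scale, with circles for clone 1, squares for clone 2 and triangles for the control; genes are grouped by role and ordered by their control level, and a library without reads has no symbol. Most genes lie above 1 CPM per kilobase with the 3 symbols close together, while Dnm3 has both clones more than 10 times below the control.

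On endosomes 1 of 7 genes rose and 2 fell, where 24.3% of all tested genes rose and 25.8% fell. Rab5a, a form of the GTPase that identifies early endosomes, fell to 74.4 and 74.7 CPM in the clones, against 102 CPM in the control (log2 fold change -0.46, SE 0.07, edgeR adjusted p = 3.12e-05). Its relatives Rab5b and Rab5c had log2 fold changes of -0.12 and -0.02 and did not pass (edgeR adjusted p = 0.122 and 0.845). Rab5c made 61.9% and 61.7% of the RAB5 level per kilobase in the clones and 58.5% in the control, and Rab5a 9.82% and 10.5% in the clones, at a RAB5 total of 144 and 135 CPM per kilobase in the clones and 149 in the control. Rab11a, a GTPase of recycling endosomes, fell to 82.7 and 82.5 CPM in the clones, against 108 CPM in the control (log2 fold change -0.38, edgeR adjusted p = 0.000133).

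Eea1, the tether that binds RAB5 and draws early endosomes together, rose to 120 and 123 CPM in the clones, against 103 CPM in the control (log2 fold change 0.25, edgeR adjusted p = 0.00418). Rab7, the late endosome GTPase, had 244 and 234 CPM in the clones and 232 CPM in the control, and the retromer-linked Snx1 had 101 CPM in both clones and 97.0 CPM in the control. Neither passed (edgeR adjusted p = 0.534 and 0.475).

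The EHD genes encode ATPases that remodel membrane during recycling. In this family 1 of 4 rose while 2 fell, where 24.3% of all tested genes rose and 25.8% fell. Ehd2, which sits at the neck of caveolae and holds them at the surface, had the largest rise of the 48 genes. It stood at 125 CPM in clone 1, 129 CPM in clone 2 and 67.2 CPM in the control, and the log2 fold change was 0.92 (SE 0.07, edgeR adjusted p = 1.82e-08). It lies on chromosome 7, and relative to the median of that chromosome the log2 fold change was 0.66 (edgeR adjusted p = 8.85e-07). Ehd1, of the recycling compartment, fell to 95.9 and 96.3 CPM in the clones, against 120 CPM in the control (log2 fold change -0.32, edgeR adjusted p = 0.000554). Ehd3 had 44 and 33 reads in the clones and 75 in the control (log2 fold change -0.86, SE 0.27, edgeR adjusted p = 0.0141; DESeq2 adjusted p = 0.394). Ehd4 did not pass (log2 fold change -0.09, edgeR adjusted p = 0.417). Per kilobase Ehd2 made 39.6% and 39.7% of the family in the clones and 22.5% in the control.

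Among the 3 receptors 1 rose, 1 fell and 1 did not pass, where 24.3% of all tested genes rose and 25.8% fell. Tfrc, the transferrin receptor gene, fell to 102 and 112 CPM in the clones, against 135 CPM in the control (log2 fold change -0.34, edgeR adjusted p = 0.000614). Lrp8, a receptor for apolipoprotein E and reelin, rose to 92.8 and 92.3 CPM, against 81.8 CPM in the control (log2 fold change 0.18, edgeR adjusted p = 0.0376). Lrp1, a large scavenging receptor, had 42.6 and 37.9 CPM in the clones and 35.1 CPM in the control (log2 fold change 0.20, edgeR adjusted p = 0.113).

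**Figure D4:**
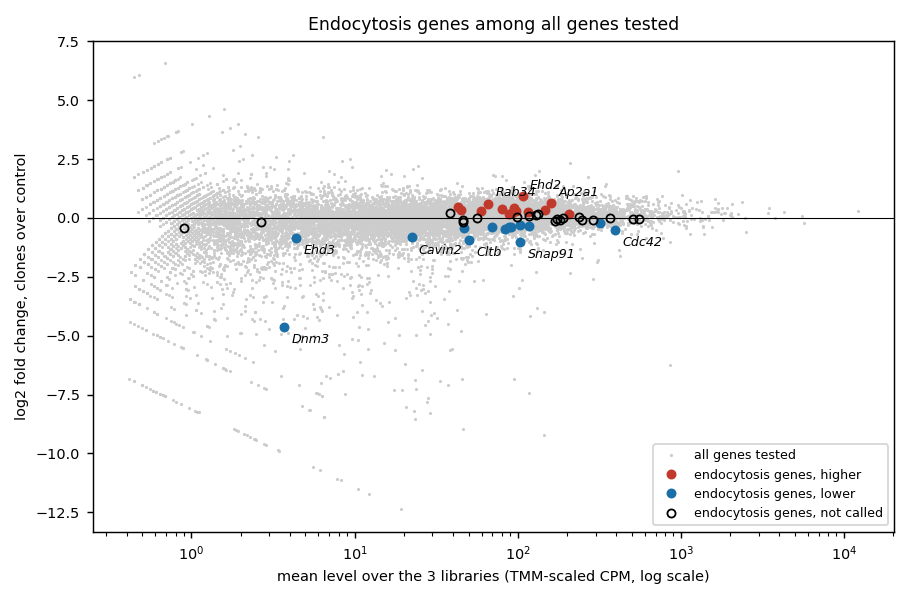
Log2 fold change of the clones over the control against the mean level over the 3 libraries in TMM-scaled CPM, on a log scale, for all 13705 genes tested (grey) and the endocytosis genes (red called higher, blue called lower, open circles not called). The endocytosis genes sit mostly above 10 CPM and near 0, with Dnm3 alone among them below -4.

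Differences between the clones were small in most of these genes, and with a single library each they were not tested. Of the 48 genes, 44 had both clones on the same side of the control, 20 above it (44.0% of all tested genes) and 24 below it (44.5%). The 4 others were Cltc, Picalm, Pak1 and Rab5c. For 8 genes the exact 95% counting interval of clone 2 over clone 1 excluded equality, against 11.5% of all tested genes. Clta, Bin1 and Tfrc were higher in clone 2, and Cltc, Dnm2, Cavin1, Rab5b and Rab5c were lower. The median absolute log2 ratio of clone 2 to clone 1 was 0.06 for the 48 genes and 0.10 for all tested genes, and the widest, 1.43 for Dnm3, rested on 7 reads in clone 2 and 2 in clone 1.

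The median log2 fold change of all genes differed between chromosomes. Of the 48 genes, 7 lie on chromosome 7 and 1 on chromosome 18, the chromosomes with the highest medians, and none lies on chromosomes 15 and X, which had the lowest (-0.28 and -0.22). On chromosome 7, Ap2a1 and Ehd2 were called higher, and 5 of the 7 lay below the chromosome median. With each chromosome's median taken as 0, the 28 calls were all made in the same direction, and Ap2a2, Bin1, Ap2b1, Epn1, Picalm and Pak1 were called lower and Lrp1 higher in addition, which made 15 higher (23.3% of all tested genes) and 20 lower (25.1%).

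**Figure D5:**
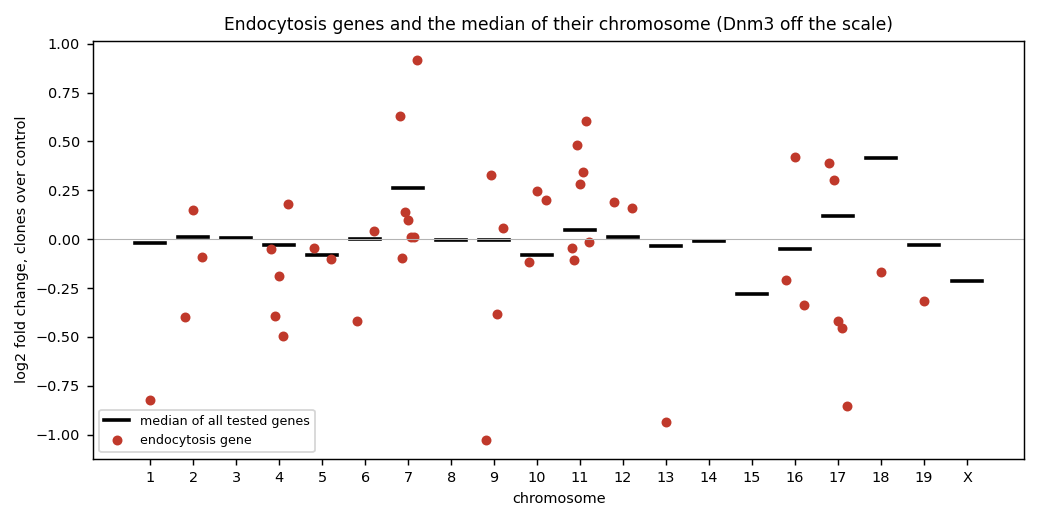
Log2 fold change of each tested endocytosis gene (red points, Dnm3 left out at -4.64) and the median of all tested genes on its chromosome (black bars), by chromosome. Only on chromosomes 7, 17 and 18 is the bar above 0.1, and 5 of the 7 red points on chromosome 7 lie under it.

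Other genes of the same routes were read from 7 lists, with up to 4 genes named from each by their p, and can be read beside the 24.3% higher, 25.8% lower and median of 0.002 of all tested genes. Of 34 further adaptors and accessory proteins tested, 7 were higher and 12 lower (median log2 fold change -0.03). Dnajc6, the neuronal auxilin that strips clathrin from vesicles, stood at 3.38 and 3.23 CPM in the clones and 24.8 CPM in the control (log2 fold change -2.91, SE 0.18, edgeR adjusted p = 2.23e-09). Sgip1, an endophilin partner made mainly in brain, fell to 22.3 and 20.1 CPM, against 48.5 CPM in the control (log2 fold change -1.19, edgeR adjusted p = 1.06e-07). Pacsin2, a membrane-bending protein gene on chromosome 15, fell to 117 and 119 CPM, against 216 CPM (log2 fold change -0.87, edgeR adjusted p = 3.94e-09), while Necap2, an AP2-binding protein gene, rose to 139 and 132 CPM, against 76.9 CPM (log2 fold change 0.81, edgeR adjusted p = 6.80e-08).

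Of 43 genes of actin assembly and ruffling, 16 were higher and 12 lower (median 0.04). Pfn2, the neuronal profilin gene, fell to 110 and 106 CPM in the clones, against 187 CPM in the control (log2 fold change -0.79), and Arpc5, a subunit of the ARP2/3 complex that branches actin, to 167 and 161 CPM, against 256 CPM (log2 fold change -0.64). Wipf3, a WASP-interacting protein gene, fell by 0.81 on the log2 scale, and Wasf2, a WAVE protein gene that activates ARP2/3 downstream of RAC1, rose by 0.59 (edgeR adjusted p between 2.09e-08 and 6.64e-07 for these 4). Of 28 phosphoinositide kinases and phosphatases, 9 were higher and 7 lower (median 0.10). Inppl1, the SHIP2 phosphatase gene on chromosome 7, rose to 402 and 395 CPM, against 208 CPM (log2 fold change 0.94, edgeR adjusted p = 8.56e-10). The lipid phosphatase genes Inpp4a and Mtmr6 and the lipid kinase gene Pik3cd were lower, with log2 fold changes of -0.69, -0.64 and -0.88.

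Sorting beyond the early endosome was read from a pair of lists. Of 38 genes of retromer, sorting nexins and recycling, 7 were higher and 12 lower (median -0.14), and of 39 genes of ESCRT and the late endosome, 9 were higher and 15 lower (median -0.13). Rab9, a GTPase of transport from late endosomes to the Golgi, fell to 29.4 and 26.9 CPM in the clones, against 89.1 CPM in the control (log2 fold change -1.66, SE 0.08, edgeR adjusted p = 1.54e-10), and lies on chromosome X. Ptpn23 and Mvb12b, of the ESCRT route, and Vps16, of the tethers before the lysosome, rose by 0.58, 0.62 and 0.58 on the log2 scale. The sorting nexin gene Snx2 had a log2 fold change of 0.52 and passed the test, but lies on chromosome 18, and relative to the median of that chromosome it did not pass (log2 fold change 0.10, edgeR adjusted p = 0.217). The GTPase genes Rab21 and Arf1 and the cargo adaptor gene Snx17 fell by 0.39, 0.31 and 0.41.

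Of 30 other endocytic receptors, 8 were higher and 12 lower (median -0.14). Lrp11, a receptor-related membrane protein gene, stood at 23.5 and 25.1 CPM in the clones and 389 CPM in the control (log2 fold change -4.00, SE 0.06, edgeR adjusted p = 1.50e-16). Scarb1, the HDL receptor gene, rose to 137 and 120 CPM, against 73.0 CPM (log2 fold change 0.82, edgeR adjusted p = 4.55e-07). Igf1r, on chromosome 7, rose to 210 and 219 CPM, against 82.5 CPM (log2 fold change 1.38, edgeR adjusted p = 5.96e-11). Of 21 partners of caveolae and of clathrin-independent uptake, 7 were higher and 6 lower (median -0.004). They include Pacsin2 again, with Slc3a2, cargo of clathrin-independent uptake, higher by 0.48, and Sh3bp1 and Fnbp1l lower, with log2 fold changes of -0.45 and -0.41. Relative to the median of chromosome 15, on which Sh3bp1 lies, its log2 fold change was -0.17 (edgeR adjusted p = 0.0252).

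The authors' deposited table, made with DESeq2 from the same 3 libraries, calls 12 of the 50 genes. In the authors' deposited table Ap2a1, Itsn1, Rab34 and Ehd2 are higher, and Cltb, Snap91, Dnm1, Dnm3, Cavin2, Cdc42, Rab5a and Rab11a are lower, where 10% and 9.77% of genes with an adjusted p are called in these directions. All 12 are edgeR calls in the same direction.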

How the data were processed

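Polyadenylated RNA was sequenced from stranded libraries, per the labels' protocols. The deposited counts are whole reads per gene, counted while STAR aligned the reads, per the file headers. The deposited RPM columns are those reads scaled by the authors to mapped library size and entered no result. The authors' deposited table gives DESeq2 log2 fold changes with p-values and adjusted p-values. The headers name STAR 2.5 with Gencode M16 (Ensembl 91) on GRCm38/mm10, and the version in the submitters' processing notes is STAR 2.5.3. With the strand setting not given in the sources used here, overlapping genes may share reads. Near-identical genes may split or lose theirs.

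Genes were kept by filterByExpr (minimum count 10, total 15), which left 13705 of 22976. Tests used the quasi-likelihood F test of edgeR 4.0.16 in R 4.3.3 with TMM factors over total counts, the legacy option off and Benjamini-Hochberg adjustment at 0.05 over all genes tested. With 1 control the spread comes from the 2 clones alone, moderated across genes, and the control is assumed to vary like them. An SE is the log2 fold change over the square root of F. Intervals are exact and cover counting error only. Gene positions and union exon lengths come from Gencode M21 on GRCm38; levels per kilobase use all annotated exons, which understates genes with long rare exons.

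The members, roles and lists were chosen with earlier results of these data known. Any of the 50 genes may be named; other lists name up to 4 called genes with the lowest p and a mean of at least 5 CPM, and 1 gene so chosen is not reported here. Alternatives were DESeq2 1.42.0, limma-voom (limma 3.58.1), RLE factors, other filters, legacy and robust fits, chromosome medians as offsets and leaving out each clone. A minimum log2 change of 0.5 was added after seeing the data.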

Additional observations from a re-analysis of the deposited data

How the results depend on the processing

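All 28 calls were also made with RLE factors, a mean CPM of at least 1, legacy and robust quasi-likelihood fits and chromosome offsets, and 27 with limma-voom, where Cavin1 was not called. DESeq2 called 4 of the 14 higher and 9 of the 14 lower members, and 1402 higher and 1369 lower genes in all, against 3334 and 3534. Without a low-count filter edgeR called 0 members in either direction (26 had an unadjusted p under 0.05), and 0 higher and 4 lower genes in all (7087 with an unadjusted p under 0.05). The cause was not tested. With a minimum log2 change of 0.5, 3 higher and 5 lower members remained. The median log2 fold change of the members was -0.10 with chromosome offsets, and between -0.0401 and -0.0105 with a clone left out, where no test was possible, since no residual degree of freedom is left. Uncalled genes on chromosome 7 changed sign with the offsets, to -0.12 for Ap2s1, -0.16 for Epn1, -0.25 for Picalm and -0.25 for Pak1, as did Rac1 on chromosome 5, to 0.0344. Picalm was at -0.00172 with a mean CPM of at least 1 and at -0.00199 with DESeq2, and Pak1 at -7.8e-05 with DESeq2. No paired analysis was possible because the single control carries no number shared with the clones. Depth limits Amph, Cav1, Cav2, Sh3gl2 and Ehd3, where differences were not detectable or rest on few reads. It also limits the size of the Dnm3 fall, which rests on 2 and 7 reads in the clones.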
